A study of Homo sapiens with 12 samples.

Results

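AEN (ENSG00000181026.15) is the gene described here, as one of the human mRNAs that Cas9 contacted in cells. Its members are the peaks on the plus strand of chr15:88621337-88632281 (hg38) in the 4 deposited lists of enhanced crosslinking and immunoprecipitation (eCLIP) of dSpCas9. AEN held 80 peaks of 18128 in all: 25 of 6605 in V5 over size-matched input, 14 of 3005 in V5 over empty vector, 24 of 6554 in FLAG over size-matched input and 17 of 1964 in FLAG over empty vector. The gene was chosen by its values in these same lists, so every count and enrichment of AEN below is a description without a test. eCLIP crosslinks a protein by UV light to the RNA it touches in living cells, recovers it by immunoprecipitation (IP), and sequences the RNA that comes with it.

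The cells were Lenti-X 293T, a line of HEK 293T human embryonic kidney cells, which carry the SV40 large T antigen, a viral protein known to bind p53. They were transiently transfected with pCDNA3.1 plasmids for V5-dSpCas9, 3xFLAG-dSpCas9 or the empty vector, without a guide RNA. dSpCas9 is Streptococcus pyogenes Cas9 without catalytic activity, and the form used here was located in the cytoplasm. The 12 libraries made 6 groups of 2 replicates: V5 IP and size-matched input of V5-dSpCas9, V5 IP of the empty vector, FLAG IP and size-matched input of 3xFLAG-dSpCas9, and FLAG IP of the empty vector. All cells were crosslinked with UV light at 400 mJ/cm2, in 2 exposures per the labels. Size-matched input is RNA from the same region of the membrane, cut from 115 kDa, without IP. Each list merged 2 replicates into 1 value per peak, so neither the spread between replicates nor the depth of the libraries is known, and the level of AEN mRNA in the cells is not given. Both V5 lists rest on the same IP libraries, as do both FLAG lists. Per the labels each kind of IP had its own adapter, so tag, antibody and adapter cannot be told apart.

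AEN, apoptosis enhancing nuclease, is an exonuclease of the ISG20 family and a transcriptional target of the tumour suppressor p53. It can degrade DNA and RNA, and it takes part in the cell death that follows DNA damage. The canonical transcript (AEN-201, GENCODE version 44) has 4 exons and 3072 nt. Its 5′ UTR has 107 nt, its coding sequence (CDS) 978 nt for 325 codons and the stop codon, and its 3′ UTR 1987 nt. Exon 1 (chr15:88621340-88621382) is 5′ UTR, exon 2 (chr15:88626146-88626749) holds the start codon, exon 3 (chr15:88629226-88629426) is CDS, and exon 4 (chr15:88630058-88632281) holds the end of the CDS and the whole 3′ UTR. No annotated gene overlaps AEN, and the paralog ISG20 starts 3389 nt downstream on the same strand.

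The 80 peaks lay on exons 2, 3 and 4 with no nucleotide outside these exons, and there were 0 peaks on exon 1, in the introns or on the minus strand of the gene. Enrichment throughout is the authors' log2 of the geometric mean ratio of IP reads to control reads in a peak. The highest value was 5.21 in V5 over size-matched input (37.0-fold), 4.83 in V5 over empty vector (28.5-fold), 5.64 in FLAG over size-matched input (49.9-fold) and 4.31 in FLAG over empty vector (19.9-fold). The maximum of FLAG over size-matched input fell in the 3′ UTR and the others in the CDS of exon 2. No list holds a peak below a log2 of 3.00, which is 8-fold, and the lowest AEN peak had 3.01, in FLAG over empty vector. The median AEN peak had 3.98, 3.86, 4.21 and 3.57 in the lists in the order above, where the median of all peaks was 3.61, 3.61, 3.63 and 3.59.

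A selection of sequences inside AEN peaks is shown as RNA, 5′ to 3′, from hg38, plus strand. The CDS stretches of exon 2 lay in peaks of all 4 lists, the part printed for interval 1 starts at the start codon, and its capitals mark a GU and the 5 bases after it that were predicted to form a stem (below). The first of the short 3′ UTR sequences is the peak with the highest AEN enrichment of any list, and the other is the last peak on the mRNA, which only V5 gave.
Interval 1, CDS part, chr15:88626210-88626289: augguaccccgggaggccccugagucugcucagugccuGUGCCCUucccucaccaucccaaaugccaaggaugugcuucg
Interval 3, chr15:88626485-88626548: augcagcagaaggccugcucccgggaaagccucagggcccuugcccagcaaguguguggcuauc
Interval 4, chr15:88626549-88626628: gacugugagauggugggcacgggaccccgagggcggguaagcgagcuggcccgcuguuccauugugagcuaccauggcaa
Interval 5, chr15:88626631-88626676: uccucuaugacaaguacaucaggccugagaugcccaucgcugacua
Interval 6, chr15:88626677-88626740: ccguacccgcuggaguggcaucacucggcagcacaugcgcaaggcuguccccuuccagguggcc
FLAG maximum over size-matched input, chr15:88630523-88630551: auggcacuuuacagacuccauggagaugu
Last V5 peak, chr15:88632151-88632172: agcaguagcuuugaucccuugg

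**Figure D1:**
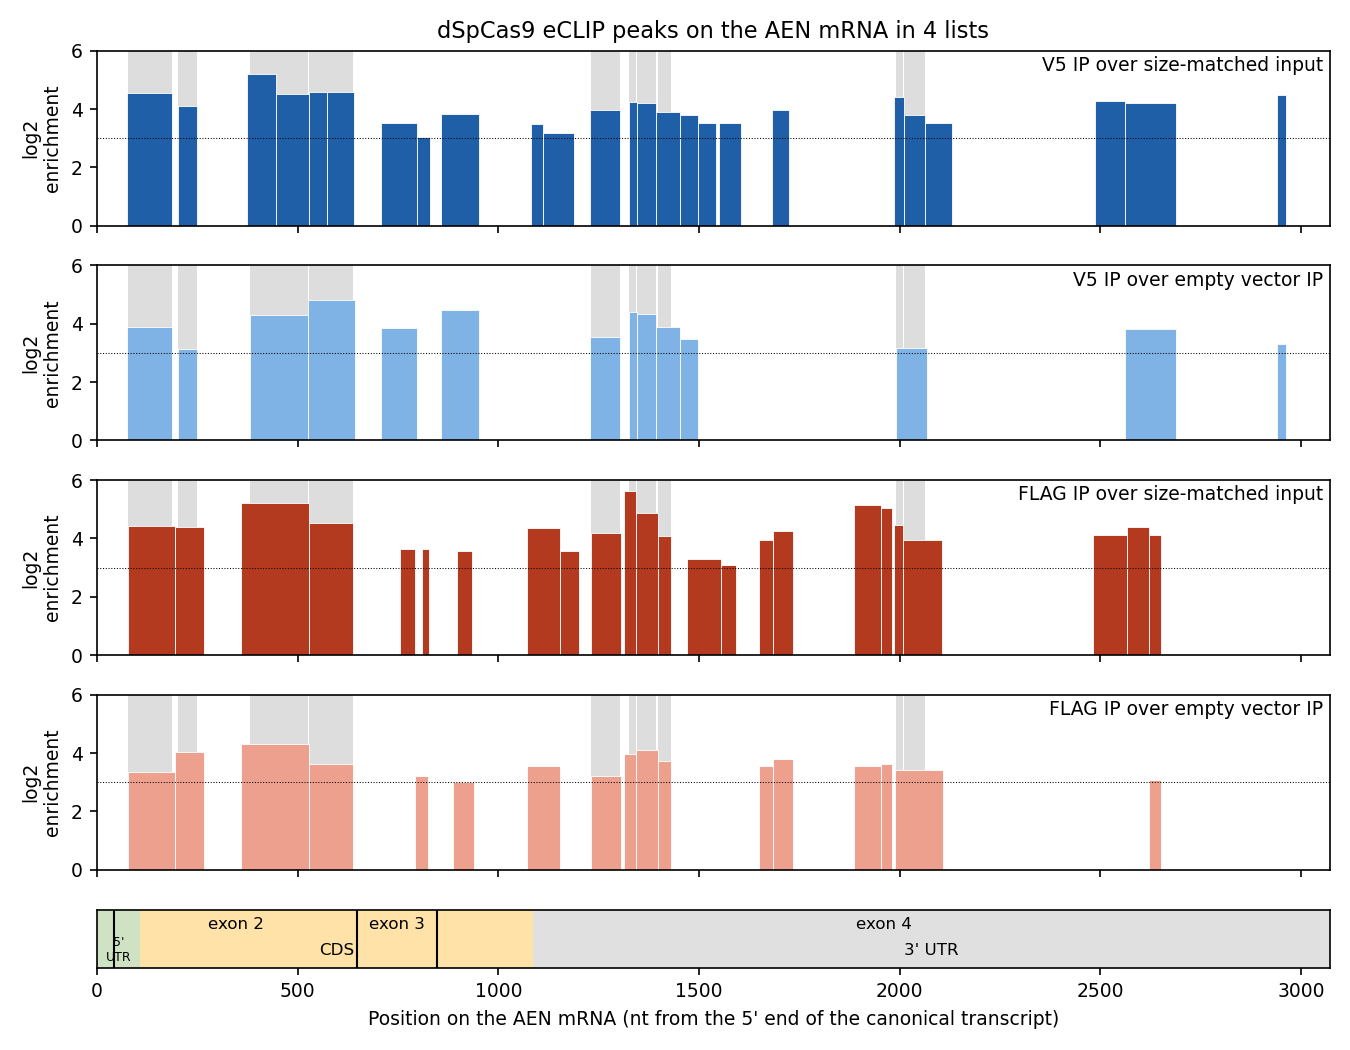
Log2 enrichment of every AEN peak (bar height; bar width is the peak) against the position on the mRNA in nt, 1 track per list, with exons and regions below. Grey bands mark the 12 intervals shared by the 4 lists and the dotted line the lowest value a list can hold, log2 of 3; every track has peaks over most of exon 2, and no track has one from nt 268 to 359, 1736 to 1886 or 2132 to 2482.

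Exon 2, which holds the start codon and the first part of the CDS, was the most fully bound exon. Peaks covered 70.4% of it in V5 over size-matched input, 69.7% in V5 over empty vector, and 77.5% in each FLAG list. The first bound stretch, chr15:88626178-88626369, began 32 nt into exon 2 and spanned the start codon. In V5 it held the peaks chr15:88626178-88626289, with 4.54 over size-matched input and 3.87 over empty vector, and chr15:88626304-88626351, with 4.09 and 3.15. In FLAG it held chr15:88626181-88626297, with 4.44 and 3.34, and chr15:88626298-88626369, with 4.39 and 4.06. The peak at the start codon was thus present in all 4 lists, with values over empty vector below those over size-matched input for both tags.

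The other stretch of exon 2, chr15:88626462-88626745, is CDS and ended 4 nt before the exon's last base. V5 over size-matched input divided it into 4 adjoining peaks, chr15:88626477-88626548 with 5.21, chr15:88626549-88626630 with 4.51, chr15:88626631-88626676 with 4.60 and chr15:88626677-88626741 with 4.59. V5 over empty vector gave chr15:88626485-88626628 with 4.31 and chr15:88626629-88626745 with 4.83. FLAG gave chr15:88626462-88626630, with 5.21 over size-matched input and 4.31 over empty vector, and chr15:88626631-88626740, with 4.52 and 3.63. This stretch held the highest value of 3 of the lists, and V5 and FLAG over size-matched input set a border between peaks at the same base, after 88626630. The 92 nt of CDS between both stretches of exon 2 lay in no list.

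Exon 3, all CDS, had the lowest enrichment of the 3 bound exons in the lists over size-matched input, with a mean per covered nucleotide of 3.40 in V5 and 3.65 in FLAG, beside 4.61 and 4.73 in exon 2. V5 over size-matched input gave chr15:88629286-88629376 with 3.53 and chr15:88629377-88629408 with 3.05, and V5 over empty vector gave the first of them with 3.85. FLAG over size-matched input gave chr15:88629333-88629371 with 3.65 and chr15:88629388-88629404 with 3.64, and FLAG over empty vector gave chr15:88629372-88629402 with 3.23. V5 covered 61.2% of the exon over size-matched input and FLAG 27.9%, and over empty vector the shares were 45.3% and 15.4%. No nucleotide of exon 3 was in all 4 lists.

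The CDS in exon 4 held a single stretch before the stop codon, chr15:88630066-88630161. In V5 it was 1 peak with 3.85 over size-matched input and 4.47 over empty vector. FLAG gave shorter peaks inside it, chr15:88630106-88630144 with 3.57 over size-matched input and chr15:88630096-88630149 with 3.01 over empty vector. In V5 the value over empty vector was thus the higher one, and in FLAG the lower one, and over empty vector the tags differed most here, with FLAG minus V5 at −1.46. The next 119 nt of CDS were free of peaks in every list.

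Around the stop codon, whose last base is 88630294, FLAG gave chr15:88630281-88630362, with 4.36 over size-matched input and 3.57 over empty vector. V5 over size-matched input gave chr15:88630291-88630319 with 3.49 and chr15:88630320-88630398 with 3.18, and FLAG over size-matched input continued with chr15:88630363-88630410 at 3.56. The stop codon was covered in 3 lists, since V5 over empty vector had no peak there.

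The 3′ UTR held most of the covered nucleotides over size-matched input, 57.1% in V5 and 60.9% in FLAG, and 43.96% and 51.0% over empty vector. It is also the longest region, with 1987 of the 3072 nt, and was covered less densely than the CDS in every list. Over size-matched input, peaks covered 43.5% of the 3′ UTR and 63.0% of the CDS in V5, and 45.1% and 56.0% in FLAG. Over empty vector these shares were 24.0% and 58.9% in V5, and 29.7% and 55.0% in FLAG. The first stretch of the 3′ UTR, chr15:88630438-88630514, was 1 peak in each list. V5 had 3.98 over size-matched input and 3.54 over empty vector (chr15:88630438-88630513). FLAG had 4.18 and 3.23 (chr15:88630440-88630514). The borders of V5 and FLAG lay 1 and 2 nt apart.

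The longest stretch of the 3′ UTR with peaks, chr15:88630523-88630813 (291 nt), held the AEN maximum of FLAG. That peak, chr15:88630523-88630551, had 5.64 over size-matched input and 3.97 over empty vector, and the V5 peak on it, chr15:88630536-88630555, had 4.25 and 4.39. Next to it V5 gave chr15:88630556-88630601, with 4.22 and 4.33, and FLAG chr15:88630552-88630608, with 4.86 and 4.09. Over size-matched input the tags differed most in this place, where FLAG was 1.39 above V5, while over empty vector V5 was the higher one. The third peak was chr15:88630602-88630661 in V5, with 3.90 and 3.89, and chr15:88630609-88630639 in FLAG, with 4.09 and 3.75. V5 then gave chr15:88630662-88630707, with 3.79 and 3.48. Over size-matched input alone, V5 gave chr15:88630708-88630752 with 3.51 and chr15:88630759-88630813 with 3.54, and FLAG gave chr15:88630680-88630763 with 3.29 and chr15:88630764-88630801 with 3.10. Over size-matched input, enrichment was thus highest at the 5′ end of this stretch and at or near its lowest at the 3′ end in both tags.

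FLAG had a run of peaks in the middle of the 3′ UTR where V5 had little. The stretch chr15:88630860-88630944 held the FLAG peaks chr15:88630860-88630894, with 3.93 over size-matched input and 3.56 over empty vector, and chr15:88630895-88630944, with 4.25 and 3.81. V5 had 1 peak there, chr15:88630891-88630934, with 3.97 over size-matched input and none over empty vector. The FLAG peaks chr15:88631096-88631162, with 5.14 and 3.57, and chr15:88631163-88631189, with 5.06 and 3.64, overlapped no V5 peak of either list. They were the only 2 of 24 FLAG peaks over size-matched input on AEN without a V5 peak over size-matched input. Their values were among the highest of FLAG on AEN. The share of such peaks over the whole lists was not computed.

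A further stretch, chr15:88631197-88631340, was bound in all lists. V5 over size-matched input gave chr15:88631197-88631221 with 4.40, chr15:88631222-88631273 with 3.80 and chr15:88631274-88631340 with 3.52, and V5 over empty vector gave chr15:88631200-88631277 with 3.18. FLAG over size-matched input gave chr15:88631197-88631217 with 4.46 and chr15:88631218-88631314 with 3.95, and FLAG over empty vector gave chr15:88631198-88631317 with 3.43. Over size-matched input the first short peak had the same start in both tags and was the highest of the stretch. Downstream of it, 351 nt of 3′ UTR lay in no list, the longest such stretch of the mRNA.

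Towards the 3′ end, the stretch chr15:88631692-88631899 held the V5 peaks chr15:88631698-88631770, with 4.28 over size-matched input only, and chr15:88631771-88631899, with 4.22 and 3.81 over empty vector. FLAG over size-matched input gave chr15:88631692-88631775 with 4.13, chr15:88631776-88631830 with 4.39 and chr15:88631831-88631861 with 4.10, of which only the last was also a peak over empty vector, with 3.08. The last peak of the mRNA was the V5 peak printed above, with 4.48 over size-matched input and 3.31 over empty vector. On AEN it was the only V5 peak over size-matched input without a FLAG peak, a share not computed over the whole lists. It lay 109 nt from the 3′ end of the transcript.

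Since adjoining peaks can be one bound stretch divided finely, coverage was also counted per nucleotide. Peaks covered 49.2% of the mRNA in V5 over size-matched input, 35.3% in V5 over empty vector, 48.0% in FLAG over size-matched input and 37.7% in FLAG over empty vector. At least 1 list covered 1746 nt (56.8%), all 4 lists covered 739 nt (24.1%), and no list covered 1326 nt (43.2%). By region, all 4 lists covered 43.3% of the CDS, 27.1% of the 5′ UTR and 14.4% of the 3′ UTR. The first 75 nt of the transcript were in no list.

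**Figure D2:**
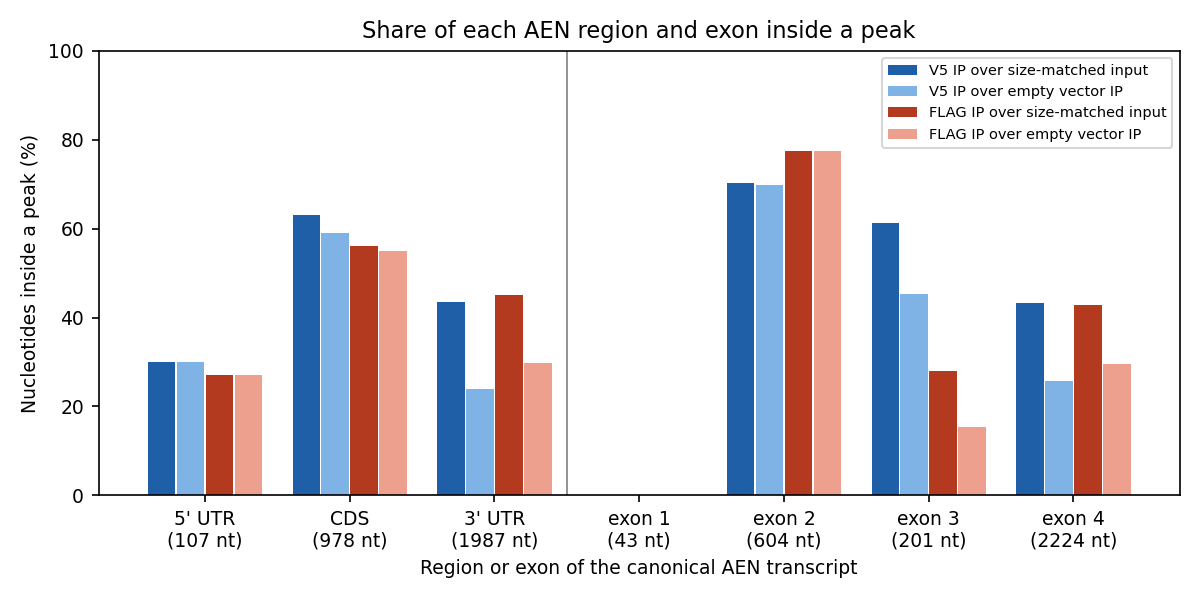
Percentage of the nucleotides of each region (left) and exon (right) of the canonical AEN transcript that lay inside a peak, 1 bar per list, with lengths in nt under the names. Exon 2 has the tallest bars in each list (69.7% to 77.5%), exon 1 has none, and in the 3′ UTR the bars over empty vector (24.0% and 29.7%) are lower than those over size-matched input (43.5% and 45.1%).

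Base composition differed between bound and free parts in the 3′ UTR. There the GC content was 58.2% in the nucleotides covered by 4 lists, 57.1% in those covered by 1 to 3 lists and 46.3% in those covered by none. In the CDS the shares were 62.4%, 62.2% and 62.1%. The dinucleotide GU occurred 5.44, 2.36 and 3.32 times per 100 nt in the same 3 classes of the CDS, and 6.97, 6.40 and 5.58 times in those of the 3′ UTR. These are values of a single mRNA whose nucleotides are not independent, and their part in the peaks was not tested.

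The intersection of the lists, with at least 50% of the first interval covered at each step, gave 12 intervals for AEN, of 749 in the series. The study's own intersection of its lists gave fewer peaks in fewer genes, so the shared intervals here are not that set. The reason for the difference was not tested. The 12 AEN intervals held 648 nt, or 21.1% of the mRNA, and were 16 to 109 nt long. Of the 12, 6 lay in exon 2 (411 nt), 0 in exon 3 and 6 in the 3′ UTR (237 nt). In V5 over size-matched input the intervals of exon 2 had 4.09 to 5.21 and those of the 3′ UTR 3.80 to 4.40. In FLAG over size-matched input these ranges were 4.39 to 5.21 and 3.95 to 5.64, so the groups overlapped in both tags. In 3 intervals all 4 values were at least 4, intervals 3 and 4 in exon 2 and interval 9 (chr15:88630556-88630601) in the 3′ UTR. Neighbouring intervals can rest on the same peak of a list. Intervals 3 and 4 share their FLAG peaks and their V5 peak over empty vector, as do 5 and 6. Intervals 11 and 12 share their peaks over empty vector. Counts of intervals are thus not counts of separate values. Of the 7 places in all 4 lists that fell short of the 50% overlap, 5 were edges of 2 to 7 nt next to shared intervals, and the others were chr15:88630106-88630144 in the CDS of exon 4 and chr15:88631831-88631861 in the 3′ UTR.

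**Figure D3:**
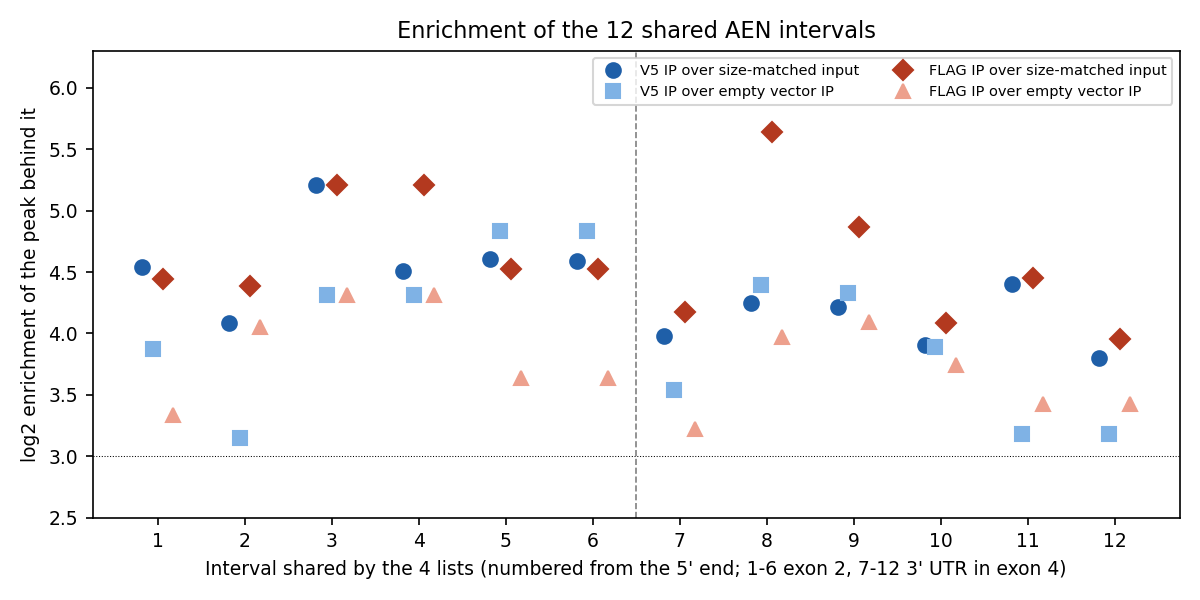
Log2 enrichment in each of the 4 lists (symbols) of the peak behind each of the 12 shared AEN intervals, numbered from the 5′ end, with exon 2 to the left of the dashed line and the 3′ UTR to the right; the dotted line is log2 of 3. FLAG over size-matched input peaks at 5.64 in interval 8, and FLAG over empty vector lies below it in all 12 intervals.

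V5 and FLAG peaks of AEN mostly overlapped, but their values differed. Over size-matched input, 24 of 25 V5 peaks overlapped a FLAG peak by at least 1 nt, and 22 of 24 FLAG peaks a V5 peak. There were 0 pairs of equal start and end. These lists covered 49.2% (V5) and 48.0% (FLAG) of the mRNA, which makes an overlap of 1 nt easy to reach. The share of overlapping peaks over the whole lists was not computed. Over the 1244 nt in both lists FLAG was 0.17 above V5 on average, from −0.50 to 1.39. FLAG was above V5 in 8 of the 12 shared intervals, some of which rest on the same FLAG peak. Over empty vector the order was the other way, and FLAG minus V5 averaged −0.37 over 759 nt.

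Of the V5 peaks over empty vector, 14 of 14 overlapped a V5 peak over size-matched input, and 11 had the same start and end. For FLAG this was 17 of 17, with 14 of equal start and end. In the other direction, 18 of 25 V5 peaks and 18 of 24 FLAG peaks over size-matched input overlapped a peak over empty vector. As a whole the lists over empty vector are shorter, with 3005 against 6605 peaks in V5 and 1964 against 6554 in FLAG. The same shares over all peaks were not computed, so these counts do not set AEN apart from other genes. In FLAG the value over empty vector was lower at each of the 1123 nt in both lists, and empty vector minus size-matched input averaged −0.85. In V5 this difference averaged −0.24 over 1081 nt, but the value over empty vector was higher in 4 of the 12 shared intervals, in exon 3, where 3.85 stood beside 3.53, and in the CDS of exon 4. The same IP libraries stand behind both values, but where the peaks have different borders, as the V5 peaks of intervals 3 to 6, 11 and 12 do, the values also cover different stretches.

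The study models Cas9-bound RNA by a GU in a loop followed by a stem of 5 bases. It states that this model explains the interactions only in part, and it scored the model by peak and by gene. The call needed all 7 bases inside the interval, a pairing probability below 0.7 for the U and above 0.5 for every stem base. Among the 12 AEN intervals 1 held the motif (8.33%), beside 36.6% of all 749 shared intervals and 40.1% of the 569 between 16 and 109 nt long. It was interval 1, printed above, where the G lay at 88626248, the pairing probability was 0.428 for the U and at least 0.590 for the stem bases. The count is small and moved with the settings, to 2 intervals when the spliced mRNA was folded and to 0 when stem bases had to be paired with more than 0.7. On the whole spliced mRNA 13 such motifs were predicted, 2 in the CDS and 11 in the 3′ UTR. Both CDS motifs lay in all 4 lists, 6 of those in the 3′ UTR lay in none, and the other 5 lay in 2 or 3. The motif is a description of predicted pairing, and most AEN intervals did not hold it.

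Among the 406 genes with a shared interval, AEN stood out more by the extent of its peaks than by their height. It ranked 1 by nucleotides in shared intervals (648 nt, where the median gene had 94 nt) and 3 by their number, tied with 1 gene. Other settings of the overlap, order or merging gave AEN from 440 nt (50% of both intervals) to 739 nt (overlap of 1 nt). Ranks under these settings were not computed. Its mean maximum over both size-matched input lists ranked 33, with 5.43, where the median gene had 4.41 and the highest 7.71. In single lists its maximum ranked 55 in V5 and 26 in FLAG over size-matched input, but 70 and 89 over empty vector. By number of peaks it ranked 4 of 2688 genes in V5 over size-matched input and 7 of 2613 in FLAG. Over empty vector it ranked 14 of 1323 in V5 and 4 of 991 in FLAG, each tied with 1 gene. A long mRNA can hold more peaks: as a share of the mRNA, shared intervals took up 21.1% of AEN, 29.1% of ATF3, 13.2% of CDKN1A and 9.66% of TRIM28, the gene with the most shared intervals.

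**Figure D4:**
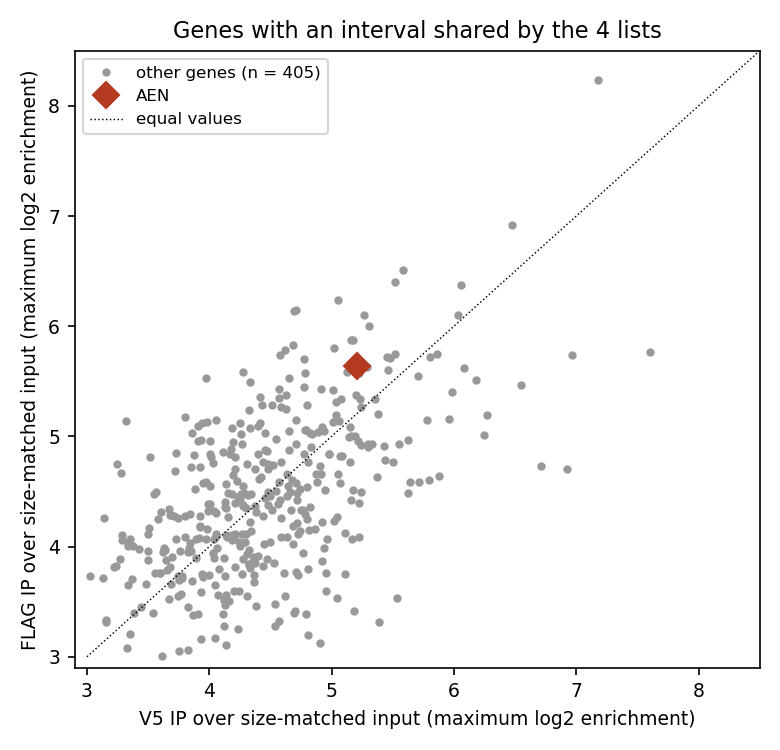
Each gene's maximum log2 enrichment in the size-matched input lists of V5 (horizontal) and FLAG (vertical), for the 406 genes with a shared interval, 1 point per gene, with equal values on the dotted line. AEN (diamond, 5.21 and 5.64) lies above the median gene (4.39 and 4.41) on both axes and below the highest genes.

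The genes nearest to AEN in the 4 maxima, by Euclidean distance on the log2 scale over the 4 lists and among 548 genes, were USP22 (0.264), RPL14P1 (0.284), ARF3 (0.386), MAPKAPK2 (0.479) and ERCC4 (0.507). USP22, a deubiquitinase of the SAGA complex, had 5.03, 4.89, 5.53 and 4.47 in the order of the lists above. It also had many peaks, 24, 20, 29 and 16, whereas ARF3, a small GTPase of the Golgi, had 3 to 5 and ERCC4, a DNA repair endonuclease subunit, 1 or 2. RPL14P1 is a processed pseudogene, whose reads may not be told apart from those of its parent gene.

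AEN belongs to a set of genes that p53 switches on, which stop the cell cycle, repair DNA or start apoptosis. Of 42 p53 pathway genes chosen from general knowledge, 24 (57.1%) had at least 1 peak in V5 over size-matched input, where 13.2% of all 20020 protein-coding genes had one. In V5 over empty vector 19 (45.2%) had a peak against 6.54%, in FLAG over size-matched input 24 (57.1%) against 12.8%, and in FLAG over empty vector 18 (42.9%) against 4.87%. A peak in each of the 4 lists was found in 15 (35.7%, against 2.72%) and a shared interval in 11 (26.2%, against 2.01%). The list holds AEN and also CDIP1, ATF3 and CDKN1A, known from earlier results of these data or from the study, so it is not independent of them. Without these 4 genes, 20 of 38 (52.6%) had a peak in each list over size-matched input, 15 (39.5%) in V5 over empty vector and 14 (36.8%) in FLAG over empty vector. The list as a whole was chosen with earlier results of these data known, so these counts are not independent of them either. Only expressed mRNAs can give peaks, and levels of expression were not analysed here, so the part of expression in these shares was not tested.

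Among the 15 genes with peaks in each list, the cell death gene CDIP1 had the highest maxima (7.18, 7.20, 8.23 and 8.01), followed by the stress transcription factor ATF3 (6.06, 6.67, 6.37 and 7.26). CDKN1A, the p21 inhibitor of cyclin-dependent kinases, had 5.52, 4.90, 6.40 and 6.49. AEN was the fifth by the mean of the 4 values, after CCNG1, cyclin G1, with 6.93, 5.25, 4.71 and 4.26. MDM2, the ubiquitin ligase that removes p53, had 5.19, 4.50, 5.01 and 4.17, and PPM1D, a phosphatase that dampens the p53 response, had 5.07, 4.72, 4.86 and 3.60. The values of both genes were below those of AEN in each list.

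Of the death genes, PMAIP1 (NOXA, a BH3-only protein) had 5.33, 5.10, 4.93 and 3.70, and TNFRSF10B (the TRAIL receptor DR5) 3.86, 3.85, 3.80 and 3.57. TRAF4, a signalling adaptor, had 4.43, 5.08, 5.28 and 4.18. The stress regulators SESN1 and SESN2 had 4.02, 4.52, 4.56 and 4.61, and 4.55, 5.15, 4.78 and 4.18. The remaining 3 were RRM2B, a subunit of ribonucleotide reductase, the repair factor XPC and the RNA-binding zinc finger gene ZMAT3, whose maxima ranged from 3.05 to 4.62. No peak in any list was found in 15 of the 42 (35.7%), among them the death genes BAX, BBC3 and FAS. The same share over all protein-coding genes was not computed, but no single list had a peak in more than 13.2% of them. These absences thus do not set the 15 genes apart.

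**Figure D5:**
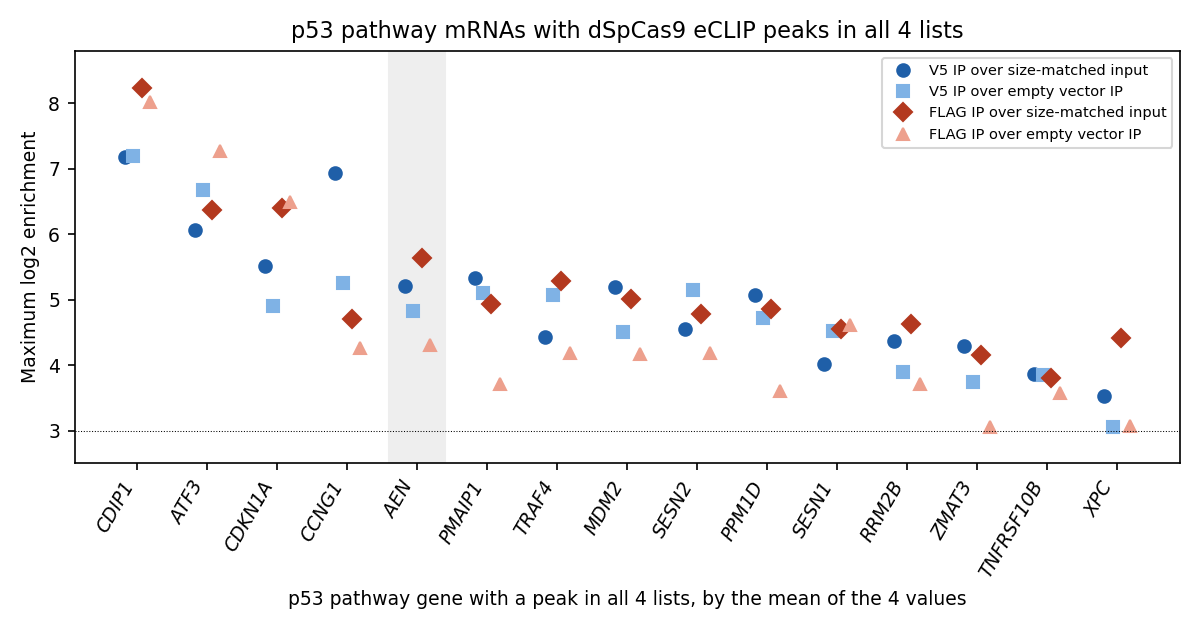
Highest log2 enrichment in each of the 4 lists (symbols) of the 15 p53 pathway genes with a peak in every list, ordered by the mean of the 4 values, with AEN shaded and log2 of 3 dotted. CDIP1 lies highest (7.18 to 8.23) and AEN (4.31 to 5.64) is the fifth.

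Few relatives of AEN had peaks, which in V5 was no fewer than among all genes. Of 12 exonuclease genes of the ISG20, REXO, ERI, TREX and PARN kinds, 9 had no peak in any list, among them the neighbour ISG20. The share of all protein-coding genes without a peak in any list was not computed. ISG20L2 (3.08) and REXO4 (3.36) had 1 peak each, in V5 over size-matched input, and ERI3 had 1 in V5 over empty vector (3.02). The shares with a peak were thus 16.7% and 8.33% in these lists, where 13.2% and 6.54% of all protein-coding genes had one, and 0 of 12 had a peak in either FLAG list, where 12.8% and 4.87% of all had one. The list of 6 nuclease genes of apoptosis, or of their partners, was chosen with earlier results of these data known. Its shares are thus not independent of them, and it is too short to read more from it than its members. Of the 6 genes, 3 had peaks in each list (against 2.72% of all protein-coding genes) and a shared interval (against 2.01%). These were DFFB, the caspase-activated DNase, with 5.02, 5.01, 4.24 and 3.54, its inhibitor DFFA with 4.92, 5.60, 4.25 and 4.21, and the lysosomal DNASE2 with 4.33, 4.51, 3.85 and 3.58. DNASE1 had 4.34 in FLAG over size-matched input only, and ENDOG and EXOG had no peak. A gene without a peak may have had too little mRNA to give one.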

How the data were processed

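The 12 libraries were grouped by their labels. The authors aligned reads to hg38 with their eCLIP pipeline, called peaks, compared IP with control reads and merged the 2 replicates by the Irreproducible Discovery Rate. The submitters' processing notes name cutadapt 1.14, UMI-tools 1.0.0, STAR 2.4.0i and SAMtools 1.6. The deposited values of a peak are the log2 of the geometric mean ratio of IP to control reads, and the −log10 of its p-value, which the authors filtered (lowest value 3.01) and which has a ceiling of 400 that 3 AEN peaks reached. How reads were scaled for library size is not given in the sources used here. No read counts or values per replicate were used here, so depth is unknown, no interval was computed and no test was run.

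From these lists, peaks were placed on GENCODE version 44 canonical transcripts in Python 3.11.15 (numpy 2.4.6, matplotlib 3.10.9), and each nucleotide took the highest peak of a list on it. The lists were intersected on the same strand, V5 and FLAG lists separately and then V5 with FLAG, with at least 50% of the first interval covered. The result was checked with bedtools 2.31.1, which also gave 749 intervals. Pairing was predicted with RNAplfold of ViennaRNA 2.7.2 (window 70, 50 nt of genomic sequence on either side). The intersection and the motif call were tested on simulated data. Alternatives changed the overlap, its order, the thresholds, the merging of adjoining peaks and the sequence folded.

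Genes named are AEN, its neighbours, members of fixed lists of p53 pathway genes, exonuclease relatives and apoptotic nucleases (values for those with a peak in each list, and for relatives with any peak), and the 5 nearest genes by the maxima of the 4 lists. The members and lists were chosen with earlier results of these data known. TRIM28, and the p53 genes and nucleases without a peak in each list, were named after their values were seen. Expression levels were not analysed here.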

Additional observations from a re-analysis of the deposited data

How the results depend on the processing

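No paired analysis was possible because both replicates were merged into a single value for every peak, and for the same reason no replicate could be left out. Merging touching peaks left 13, 10, 13 and 11 AEN peaks (V5 over size-matched input, V5 over empty vector and the same for FLAG). A log2 of at least 4 left 12 in V5 over size-matched input, 5 in V5 over empty vector, 16 in FLAG over size-matched input and 3 in FLAG over empty vector. A −log10 p of at least 10 left 9 in V5 over empty vector. In place of the maximum, the length-weighted mean was 4.05 and the median 3.98 in V5 over size-matched input, 3.97 and 3.86 in V5 over empty vector, 4.33 and 4.21 in FLAG over size-matched input, and 3.66 and 3.57 in FLAG over empty vector. Shared AEN intervals numbered 19 with an overlap of 1 nt, 11 with FLAG before V5, 9 with the empty vector lists first and 8 with 50% of both intervals. They numbered 9 with a −log10 p of at least 10, 6 after merging touching peaks and 3 with a log2 of at least 4. At that log2 the nucleotides covered were 740 in V5 over size-matched input, 423 in V5 over empty vector, 1077 in FLAG over size-matched input and 298 in FLAG over empty vector. By peak midpoints the 3′ UTR held 64.0%, 57.1%, 70.8% and 64.7% of the AEN peaks in the same order, so in V5 over empty vector the 3′ UTR turned from the smaller part (43.96% of covered nucleotides) to the larger. These shares stand beside a 3′ UTR that makes up 1987 of the 3072 nt of the mRNA. The FLAG minus V5 difference over size-matched input was 0.28 over shared intervals and 0.43 between maxima, and empty vector minus input was −0.36 in V5 and −0.86 in FLAG over shared intervals. The motif was called in 2 intervals on the spliced sequence and in 0 with stem probabilities over 0.7. With a log2 of at least 4, 17 p53 pathway genes had a peak in V5 over size-matched input and 12 in V5 over empty vector. In FLAG these counts were 15 and 10. The share of all protein-coding genes at this limit was not computed. AEN ranked 34 by the mean of 4 maxima, 3 by number and 1 by nucleotides of shared intervals. The count without the 4 known p53 genes was added after the data were seen. The cause of these differences was not tested, beyond that stricter limits keep fewer peaks. Unknown depth limits each value.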
